A study of Mus musculus with 6 samples.

Results

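The genes described here make the DNA breaks of meiotic recombination and carry out the strand exchange that follows. They are Spo11, Mei1, Mei4, Rec114 and Prdm9 on the side of break formation, and Dmc1, Psmc3ip, Mnd1, Spata22 and Tex15 on the side of strand exchange. All 10 were found among the 21786 gene symbols shared by the 6 count files, 9 under their own symbol and Rec114 under its older symbol 2410076I21Rik, which RefSeq's gene table gives as a synonym. They were chosen by gene name, as known parts of the process. Polyadenylated RNA of whole testes was sequenced from 3 Stra8 -/- males aged 1 year, whose testes were grossly enlarged, and from 3 Stra8 +/+ adults aged 2 to 4 months with normal testes. All animals had a C57BL/6 background, and each library came from 1 male. The labels describe the enlarged testes as holding mostly cells that look like type A spermatogonia. Age and enlargement go with genotype, so their effects cannot be told apart.

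In meiotic prophase the topoisomerase-like protein SPO11 cuts both DNA strands at many places in the genome. In the mouse, MEI1, MEI4 and REC114 are needed for these cuts, and PRDM9 marks where they fall by methylating histone H3 near its DNA motif. The cut ends are trimmed to single strands, and recombinases such as DMC1, helped by PSMC3IP with MND1, by SPATA22 with MEIOB and by TEX15, lead the strand into the homologous chromosome. STRA8 is induced by retinoic acid and is needed in germ cells to enter this programme.

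Gene reads numbered 7883466 to 12425689 in the Stra8-deficient libraries and 6733128 to 8937224 in the wild-type libraries. Levels are CPM, read counts set relative to the size of their library after TMM scaling (a correction for RNA composition). Fold changes are log2 values of Stra8-deficient over wild-type testes, given ± their standard error (SE), which is approximate. A gene is called when its Benjamini-Hochberg adjusted p in edgeR's quasi-likelihood test is under 0.05. Stra8 itself had 211, 249 and 270 reads in Stra8-deficient libraries and 120, 132 and 93 in wild-type libraries, and was not called (0.21 ± 0.21; edgeR, adjusted p = 0.384). It was called higher with library size alone (0.83; edgeR, adjusted p = 0.00568) and under scaling to Sertoli cell genes (3.81; edgeR, adjusted p = 3.31e-04). Which part of the gene is deleted is not given in the sources used here, so this level does not check the labels. All 10 markers of pachytene spermatocytes were lower, with a summed level of 71.3 to 80.3 CPM in Stra8-deficient libraries and 10593 to 11368 CPM in wild-type libraries. All 8 markers of elongating spermatids were lower too, at 6.29 to 14.6 CPM in Stra8-deficient and 28303 to 32688 CPM in wild-type libraries. Of 13 markers of undifferentiated spermatogonia 10 were higher and 3 lower, with sums of 1182 to 1984 CPM in Stra8-deficient and 101 to 112 CPM in wild-type libraries. Of 8 markers of differentiating spermatogonia 6 were higher, 1 was lower and 1, Stra8 itself, was not called. Their sums were 2214 to 3023 CPM in Stra8-deficient and 1057 to 1088 CPM in wild-type libraries. In whole testes, fewer cells of a type and less RNA per cell cannot be told apart. The third Stra8-deficient library was counted on a longer gene list, and values without it are given for Mei1 and Sycp3, which then lost their call. Other fold changes also moved without it, such as Prdm9 from -2.10 to -2.44 and Rpa3 from 3.67 to 3.20.

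The 10 genes did not move together. Of the 9 tested, 4 were higher (Mei1, Mei4, Rec114, Tex15), 4 were lower (Spo11, Prdm9, Psmc3ip, Spata22) and Dmc1 was not called, while scaling the libraries to a list of Sertoli cell genes (Sertoli scaling) turned the sign of Prdm9 and Psmc3ip and left none of the 4 called lower. Of the 15018 genes tested 75.8% were called, 39.0% higher and 36.7% lower. The libraries of the 2 genotypes did not overlap for 8 of the 10, and for 80.2% of all genes tested. With 4 of 9 called in each direction, the shares are near the background, and what follows gives size and direction gene by gene. Mnd1 had too few reads for the low-count filter and was tested only without it or with 1 library left out. The median fold change was 0.75 for the 5 break formation genes and -0.80 for the 4 tested strand exchange genes, against 0.11 for all genes. Both sets were split, from -3.74 to 3.49 in break formation and from -3.57 to 2.04 in strand exchange. The first median is the value of Mei1, so the medians do not show that either set moved as a whole.

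**Figure D1:**
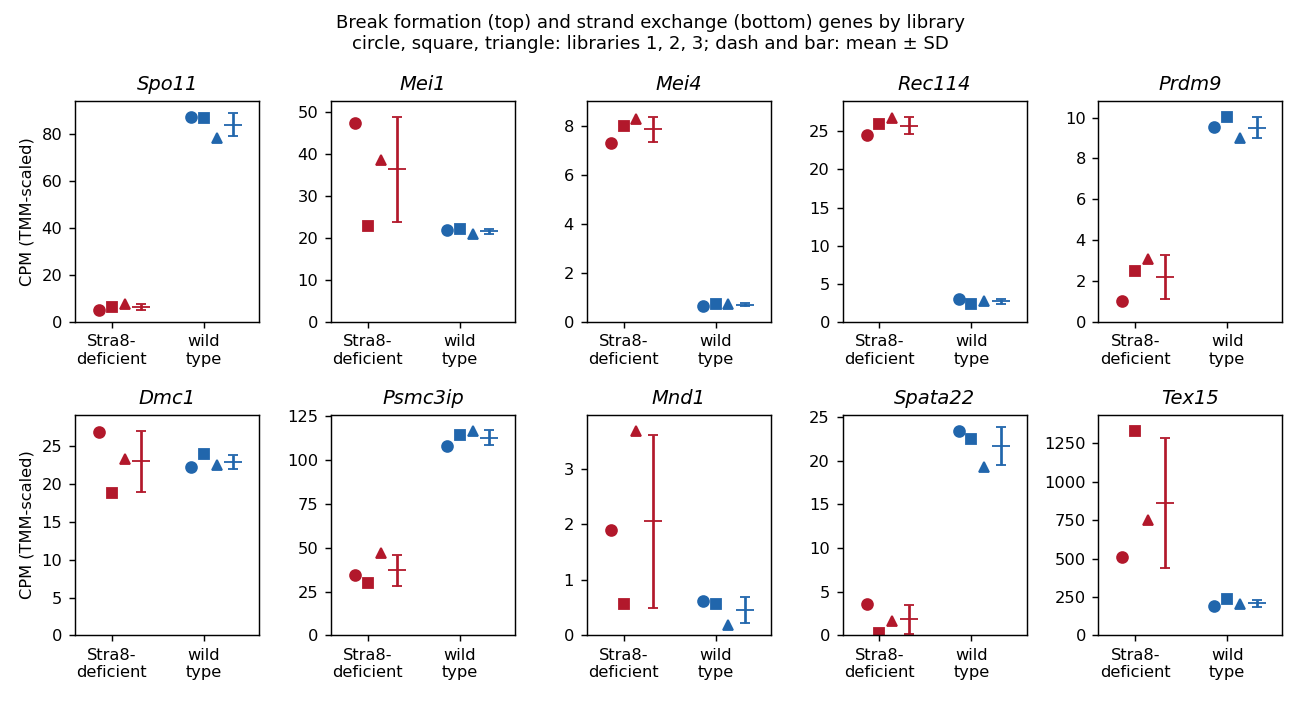
Level of each gene in CPM (vertical axes start at 0) in the 3 Stra8-deficient (red, left) and 3 wild-type (blue, right) libraries, with mean ± SD beside them. Mei4 and Rec114 sit high in Stra8-deficient libraries and Spo11 sits low, while Dmc1 lies between 18.9 and 26.9 CPM in all 6 libraries.

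Spo11, which encodes the catalytic subunit that cuts the DNA, was lower in Stra8-deficient testes. Its level was 5.02, 6.29 and 7.37 CPM in Stra8-deficient libraries and 87.0, 86.6 and 78.0 CPM in wild-type libraries. The groups were far apart, with all Stra8-deficient libraries below all wild-type ones. Spo11 fell by 3.74 ± 0.22 on the log2 scale, 13.4-fold lower (edgeR, adjusted p = 5.13e-07). The transcript was still read 226 times in Stra8-deficient libraries, against 1595 times in wild-type libraries. Under Sertoli scaling Spo11 was at -0.32 and not called.

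Mei4 and Rec114, whose proteins form a complex in the mouse that is needed for SPO11 to cut, moved the other way. Mei4 was read 73, 84 and 124 times in Stra8-deficient libraries, against 4, 5 and 4 times in wild-type libraries. These counts correspond to 7.33, 8.0 and 8.31 CPM in Stra8-deficient and 0.625, 0.706 and 0.734 CPM in wild-type testes. Every Stra8-deficient library lay well above every wild-type library. The log2 fold change of Mei4 was 3.49 ± 0.37 (edgeR, adjusted p = 2.50e-05), 11.3-fold higher. Its wild-type level rests on 13 reads in all, with a 95% counting interval of 6.92 to 22.2 reads.

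Rec114 had 244, 273 and 399 reads in Stra8-deficient libraries and 19, 16 and 15 reads in wild-type libraries. In CPM these were 24.5, 26.0 and 26.7 in Stra8-deficient testes, against 2.97, 2.26 and 2.75 in wild-type testes. As for Mei4, the groups did not overlap and the Stra8-deficient libraries were close to each other. Rec114 rose by 3.27 ± 0.25, or 9.66-fold (edgeR, adjusted p = 3.46e-06), and leaving out any 1 library gave 3.15 to 3.35. In the GENCODE M21 annotation 344 bases, or 26.9% of the exons of Rec114, overlap Nptn on the opposite strand. Nptn, a gene for a neural cell adhesion protein, was itself higher, at 127 ± 11.9 CPM in Stra8-deficient and 49.0 ± 2.59 CPM in wild-type testes (1.37 ± 0.16; edgeR, adjusted p = 5.03e-05; n = 3 each, SD). Strand handling is not stated, so reads in the shared stretch cannot be told apart, and the part of Nptn in the Rec114 counts was not tested.

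Mei1, also needed for break formation, was slightly higher. Its level was 47.5, 22.9 and 38.6 CPM in Stra8-deficient libraries and 21.9, 22.0 and 20.9 CPM in wild-type libraries. The groups did not overlap, but the second Stra8-deficient library lay just above the wild-type range. Mei1 was at 0.75 ± 0.27 (edgeR, adjusted p = 0.0312). Without the first Stra8-deficient library the value was 0.48 and not called (edgeR, adjusted p = 0.103). Leaving out the third also ended the call (0.69; edgeR, adjusted p = 0.0661), as did leaving out any 1 wild-type library (0.71 to 0.75; edgeR, adjusted p = 0.0858 to 0.0976). It was also lost with RLE size factors (0.63), germ cell scaling (0.56), DESeq2 (0.63) and limma-voom (0.68).

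Prdm9, the histone methyltransferase that places the breaks, was lower. Its level was 1.00, 2.48 and 3.08 CPM in Stra8-deficient libraries and 9.52, 10.0 and 8.99 CPM in wild-type libraries. All Stra8-deficient libraries were below the wild-type ones, and the first held only 10 reads. Prdm9 was at -2.10 ± 0.42 (edgeR, adjusted p = 0.00148), 4.28-fold lower, and at 1.26, not called, under Sertoli scaling.

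The starts of Rec114, Mei4 and Prdm9 are shown because they are break formation genes that moved in opposite directions in Stra8 -/- testes. Each stretch runs from 250 bases before the start to 30 after it, from RefSeq's GRCm38.p6 promoter table, and capitals mark motif matches. The table held 8 of the 10 genes. Rec114 lies at chr9:58741530-58741809 on the minus strand, Mei4 at chr9:81863420-81863699 on the plus strand, and this start of Prdm9, 1 of 2 in the table, at chr17:15564325-15564604 on the minus strand.
Rec114: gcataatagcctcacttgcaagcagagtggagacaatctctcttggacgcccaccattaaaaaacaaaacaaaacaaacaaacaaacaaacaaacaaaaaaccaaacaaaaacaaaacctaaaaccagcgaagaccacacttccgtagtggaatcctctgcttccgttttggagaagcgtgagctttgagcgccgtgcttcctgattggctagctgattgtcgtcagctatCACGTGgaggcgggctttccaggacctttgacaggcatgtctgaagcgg
Mei4: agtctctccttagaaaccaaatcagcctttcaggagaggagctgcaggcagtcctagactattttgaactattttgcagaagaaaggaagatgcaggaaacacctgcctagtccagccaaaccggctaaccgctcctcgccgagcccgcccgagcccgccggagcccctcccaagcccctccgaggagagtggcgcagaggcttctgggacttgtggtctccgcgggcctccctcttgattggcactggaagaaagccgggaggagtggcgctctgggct
Prdm9: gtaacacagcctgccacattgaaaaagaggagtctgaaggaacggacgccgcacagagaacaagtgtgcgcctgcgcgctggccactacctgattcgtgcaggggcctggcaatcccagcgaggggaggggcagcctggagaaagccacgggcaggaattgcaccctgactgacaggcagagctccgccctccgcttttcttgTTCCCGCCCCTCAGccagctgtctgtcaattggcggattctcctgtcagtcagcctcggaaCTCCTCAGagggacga

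The motif known for mouse STRA8, CNCCTCAG, was searched on both strands from 250 bases before to 50 after each start. It was found in 1 of the 8 genes, Prdm9, where it stood 41 bases before and 15 bases after the start, and in 9.12% of all 27025 genes of the table. The E2F motif TTCCCGCC stood 47 bases before the start of Prdm9, overlapping the first STRA8 match, and on the opposite strand 5 bases before that of Spata22 (2.52% of all genes). The E-box CACGTG stood 19 bases before the start of Rec114 and was in 8.09% of all genes. The cyclic AMP response element TGACGTCA was in none of the 8 and in 2.03% of all genes. These are matches of letters in these windows. The Prdm9 matches lie at the start shown, and its other start held none of these motifs. With 200 bases before the start only, the E2F match of Spata22 fell outside the window.

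Among the strand exchange genes, Dmc1 encodes the recombinase found in meiotic cells alone. Its level was 26.9, 18.9 and 23.3 CPM in Stra8-deficient libraries and 22.3, 24 and 22.6 CPM in wild-type libraries. The groups overlapped, with the Stra8-deficient libraries on both sides of the wild-type ones. Dmc1 was at 0.00 ± 0.21 with a 95% interval of -0.47 to 0.48 (edgeR, adjusted p = 0.989), so changes within that interval are not excluded here. With library size alone it was called higher (0.62; edgeR, adjusted p = 0.0239), and so it was under Sertoli scaling (3.38; edgeR, adjusted p = 0.00110).

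Psmc3ip and Mnd1 encode partners, known as HOP2 and MND1, that help DMC1 invade the homologous strand. Psmc3ip was lower, at 34.6, 29.8 and 46.8 CPM in Stra8-deficient libraries and 108, 114 and 117 CPM in wild-type libraries. The groups did not overlap (-1.60 ± 0.20; edgeR, adjusted p = 8.04e-05), 3.04-fold lower, and under Sertoli scaling the value was 1.70 and not called. In GENCODE M21 385 bases, or 21.2% of its exons, overlap Mlx on the opposite strand. Mlx, a gene for a transcription factor, was higher at 43.9 ± 8.27 CPM in Stra8-deficient and 11.0 ± 0.581 CPM in wild-type testes (2.00 ± 0.22; edgeR, adjusted p = 3.03e-05; n = 3 each, SD). Here too reads in the shared stretch cannot be told apart, and the part of Mlx in the Psmc3ip counts was not tested.

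Mnd1 was sparse, with 19, 6 and 55 reads in Stra8-deficient libraries and 4, 4 and 1 in wild-type libraries. In CPM it stood at 1.91, 0.572 and 3.68 in Stra8-deficient testes, against 0.625, 0.565 and 0.183 in wild-type testes. The second Stra8-deficient library fell inside the wild-type range, so the groups overlapped. Without the low-count filter Mnd1 was at 2.14 (edgeR, adjusted p = 0.0271), and in the authors' deposited table its log2 ratio was 2.16 with a corrected p of 5.30e-04. Leaving out the second Stra8-deficient library gave 2.51 (edgeR, adjusted p = 0.00501), while leaving out any 1 wild-type library gave 1.78 to 2.36 and no call (edgeR, adjusted p = 0.0575 to 0.102).

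Spata22, whose protein binds single-stranded DNA together with MEIOB, was lower and uneven. Its reads numbered 36, 3 and 24 in Stra8-deficient libraries and 150, 159 and 105 in wild-type libraries. Its level was 3.61, 0.286 and 1.61 CPM in Stra8-deficient and 23.4, 22.4 and 19.3 CPM in wild-type testes. All Stra8-deficient libraries were below the wild-type ones, with the second at the level of 3 reads. Spata22 was at -3.57 ± 0.62 (edgeR, adjusted p = 6.24e-04), 11.9-fold lower, and at -4.46 without the first Stra8-deficient library. Under Sertoli scaling it was at -0.60 and not called. GENCODE M21 also lists Gm49340 over 80.5% of its exons on the same strand, a gene that is not used here.

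Tex15, needed in the mouse for DMC1 to gather at breaks and also known for transposon silencing in germ cells, was the most abundant of the 10 in Stra8-deficient testes. Its level was 508, 1330 and 749 CPM in Stra8-deficient libraries and 190, 235 and 205 CPM in wild-type libraries. The groups did not overlap, and the second Stra8-deficient library stood highest. Tex15 rose by 2.04 ± 0.33, 4.10-fold (edgeR, adjusted p = 4.13e-04), and was still called higher without the second Stra8-deficient library (1.54; edgeR, adjusted p = 2.90e-04).

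**Figure D2:**
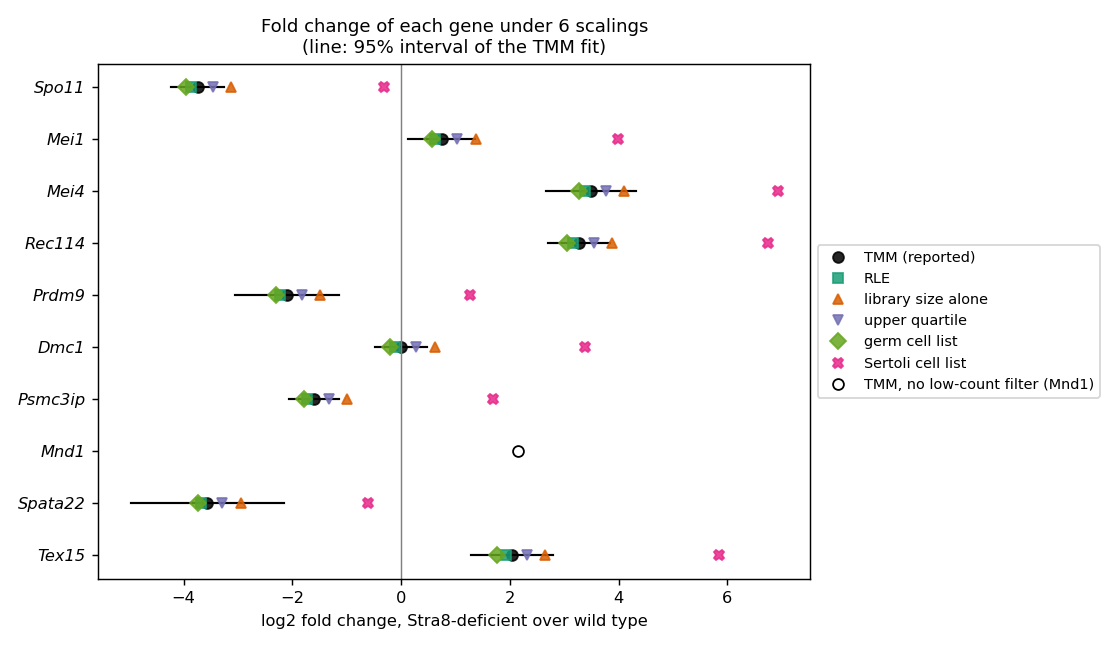
Log2 fold change of each gene (horizontal axis, Stra8-deficient over wild type) under 6 ways of scaling the libraries, with the 95% interval of the TMM fit as a line and Mnd1 only without the low-count filter. Mei4, Rec114, Mei1 and Tex15 are above 0 under each scaling, while Sertoli scaling moves Prdm9 to 1.26 and Psmc3ip to 1.70, neither called.

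The median fold change of all genes was 0.73 with library size alone, 0.38 by upper-quartile scaling, -0.009 with RLE size factors, -0.11 after germ cell scaling and 3.55 under Sertoli scaling, and each fold is relative to it. Of all calls 51.5% were higher with TMM, 63.6% with library size alone and 89.4% under Sertoli scaling. The summed Sertoli list spanned 86.7 to 687 CPM in Stra8-deficient and 1855 to 2051 CPM in wild-type libraries. Much of that sum was Clu, with a mean of 1358 CPM in wild-type libraries, against 1940 CPM for the whole list. In Stra8-deficient libraries Clu was uneven, at 121, 31.1 and 586 CPM, against list sums of 220, 86.7 and 687 CPM. Clu was called lower (-2.46 ± 0.95), and Wt1 of the same list was not called (-0.31 ± 0.18). Sertoli scaling without Clu was not tested.

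Ratios of reads within a library do not depend on scaling, and 10 such ratios were computed after the values above had been seen. For each Spo11 read there were 1.46, 1.27 and 1.13 Mei4 reads in Stra8-deficient libraries, against 0.00718, 0.00816 and 0.00941 in wild-type libraries. The ratio of Rec114 to Spo11 was 4.88, 4.14 and 3.63 in Stra8-deficient and 0.0341, 0.0261 and 0.0353 in wild-type libraries. On the log2 scale the mean ratios differed between the genotypes by 7.29 and 7.05, without overlap. The ratio of Rec114 to Mei4 overlapped between the genotypes, at 3.34, 3.25 and 3.22 in Stra8-deficient and 4.75, 3.20 and 3.75 in wild-type libraries. Two-sided exact permutation of 3 against 3 libraries cannot go below p = 0.1. That value was found for both ratios to Spo11 (0.143 adjusted over the 10), and exact p = 0.4 for Rec114 to Mei4.

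Ratios were taken in the same way for pairs in strand exchange. The ratio of Mnd1 to Psmc3ip was 0.0551, 0.0192 and 0.0787 in Stra8-deficient libraries, against 0.00578, 0.00495 and 0.00157 in wild-type libraries (exact permutation, p = 0.1), with 9 wild-type Mnd1 reads behind it. Spata22 and its partner Meiob overlapped between the genotypes in their ratio, which was 1.09, 0.200 and 0.522 in Stra8-deficient and 1.2, 1.07 and 0.840 in wild-type libraries (exact permutation, p = 0.3). Tex15 had 18.9, 70.5 and 32.1 reads for each Dmc1 read in Stra8-deficient and 8.51, 9.80 and 9.09 in wild-type libraries (exact permutation, p = 0.1).

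**Figure D3:**
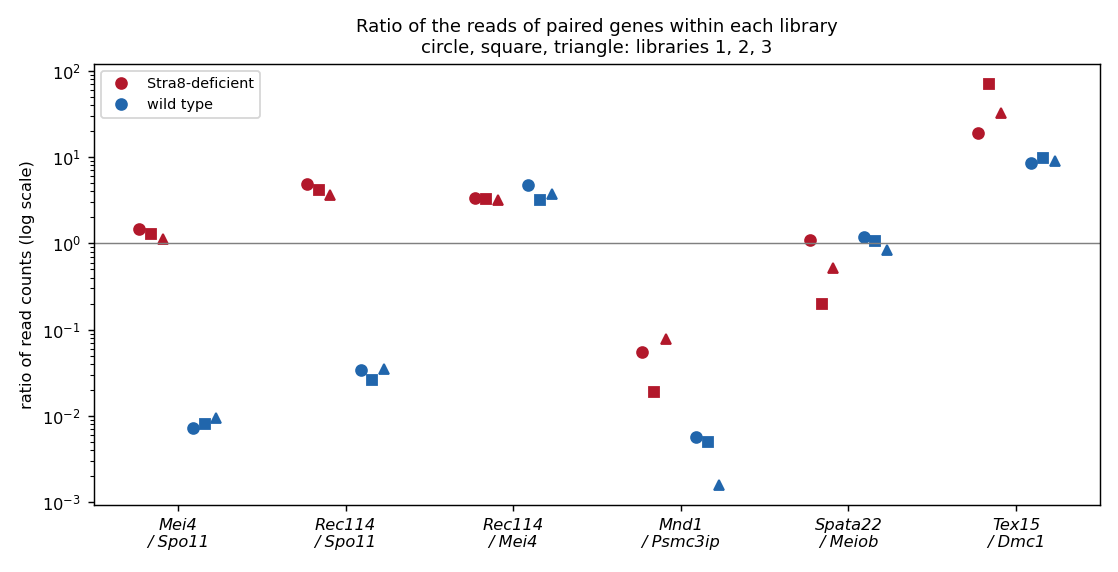
Ratio of the read counts of paired genes within each library (vertical axis, log scale) for Stra8-deficient (red, left of each pair) and wild-type (blue) libraries. Mei4 to Spo11 and Rec114 to Spo11 are above 1 in every Stra8-deficient and below 0.1 in every wild-type library, while Rec114 to Mei4 lies between 3.20 and 4.75 in all 6 libraries.

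Of all reads of the 10 genes, Tex15 held 83.8 ± 7.64% in Stra8-deficient testes, against 43.1 ± 2.34% in wild-type testes (n = 3 each, SD). Spo11 held 0.669 ± 0.204% in Stra8-deficient testes, against 17.3 ± 1.21% in wild-type testes, and Psmc3ip 4.15 ± 1.81% in Stra8-deficient testes, against 23.3 ± 1.27% in wild-type testes. Exact permutation gave p = 0.1, the smallest possible, for 8 of the 10 shares (adjusted p = 0.125), p = 0.3 for Mnd1 and p = 0.8 for Mei1. Tex15 supplies most of the reads in Stra8-deficient libraries and the largest share in wild-type ones. The share of each other gene therefore moves with that of Tex15.

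Levels of different genes were set side by side per kilobase of exon. In Stra8-deficient testes Tex15 came first with 89.6 ± 43.9 CPM per kilobase, apart from the rest. Psmc3ip (20.4 ± 4.82) and Rec114 (20.2 ± 0.892) followed and overlapped each other, as did Dmc1 (9.46 ± 1.65) and Mei1 (7.66 ± 2.63). Mnd1 (2.35 ± 1.78), Mei4 (1.91 ± 0.121), Spo11 (1.59 ± 0.300) and Spata22 (1.44 ± 1.32) did not differ from their neighbours beyond their spread. Prdm9 had the lowest mean with 0.508 ± 0.248 CPM per kilobase, and its libraries overlapped those of Spata22 and Mnd1. In wild-type testes Psmc3ip came first with 62.1 ± 2.43 CPM per kilobase. Tex15 (21.8 ± 2.39) and Spo11 (21.4 ± 1.30) overlapped, and Spata22 (17.0 ± 1.71), Dmc1 (9.43 ± 0.372) and Mei1 (4.56 ± 0.127) followed in that order without overlap. Prdm9 (2.21 ± 0.120) and Rec114 (2.08 ± 0.284) overlapped, and Mnd1 (0.523 ± 0.273) and Mei4 (0.167 ± 0.0138) were last. By mean, Rec114 was 3rd of the 10 in Stra8-deficient testes and 8th in wild-type testes, and Spo11 was 8th in Stra8-deficient testes, against 3rd in wild-type testes. With the length of the longest transcript in place of all exons, Rec114 was 2nd in Stra8-deficient testes and 7th in wild-type testes.

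**Figure D4:**
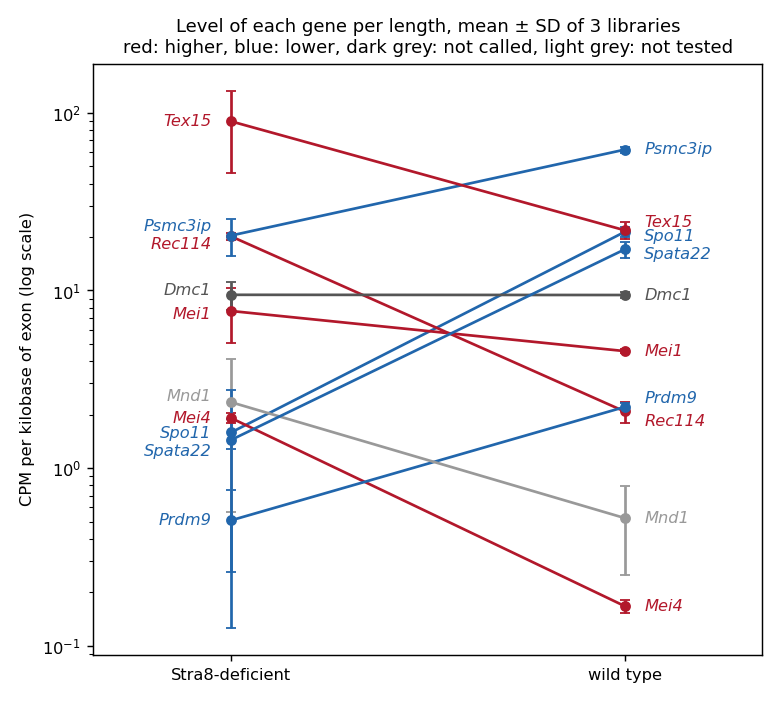
Level of each gene per kilobase of exon (vertical axis, log scale, mean ± SD of 3 libraries) in Stra8-deficient (left) and wild-type (right) testes. The lines of Rec114 and Spo11 cross, and Dmc1 stays at 9.46 CPM per kilobase in Stra8-deficient testes, against 9.43 in wild-type testes.

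The Stra8-deficient libraries differed among themselves more than the wild-type ones, with a biological coefficient of variation over all genes of 38.2% in Stra8-deficient and 7.41% in wild-type libraries. Against this, Rec114 varied by 4.43% and Mei4 by 6.35% of their mean between Stra8-deficient libraries (SD, n = 3), no more than counting error alone gives (5.72% and 10.3%). Spo11 varied by 18.9% and Dmc1 by 17.5%. The widest spread was in Spata22 (91.3%), Mnd1 (76.0%), Tex15 (49.0%) and Prdm9 (48.8%), and the read counts of the first 2 were low. The second Stra8-deficient library was the lowest of the 3 in Mei1, Dmc1, Psmc3ip, Mnd1 and Spata22 and the highest in Tex15. The same library had the lowest sums of Sertoli (86.7 CPM, against 220 and 687 in the first and the third), Leydig (18.4, against 324 and 2676) and macrophage markers (184, against 219 and 634), and the highest sum of pan-germ-cell markers (3532, against 2911 and 2642). The part of these cell types in the spread was not tested. In wild-type libraries the sums were 1855 to 2051 CPM for Sertoli, 747 to 1228 for Leydig, 86.6 to 94.5 for macrophage and 2448 to 2637 for pan-germ-cell markers. Of the marker lists, 10 of 11 Sertoli genes were lower, 4 of 6 macrophage genes were higher and none of 6 Leydig genes was called, and no gene of these 3 lists had 0 reads in either genotype. The 6 pan-germ-cell genes, also used for germ cell scaling, went both ways, with 4 higher and 2 lower. They ran from -1.55 for Ddx4 to 2.42 for Dazl, so their sum adds genes that moved in opposite directions.

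The other genes of the pathway mostly rose. Of 49 listed, 44 were in all 6 files and were tested: 27 were higher, 10 lower and 7 not called, with a median fold change of 0.97 against 0.11 for all genes, and none of the 10 was called lower under Sertoli scaling. This is a higher share of genes called higher than the 39.0% over all genes, which was not tested as a difference.

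Among partners in break formation 5 of 8 were higher, 1 lower and 2 not called. Hells, a chromatin remodeller that works with PRDM9, rose to 393 ± 42.1 CPM in Stra8-deficient testes, against 42.0 ± 0.662 CPM in wild-type testes (3.22 ± 0.18; edgeR, adjusted p = 3.57e-07; n = 3 each, SD). Zcwpw1, a reader of the histone marks that PRDM9 writes, rose by 2.97 ± 0.24 and Trip13, an ATPase that removes HORMA proteins from chromosome axes, by 1.61 ± 0.20. Hormad2, an axis protein, was at -0.90 ± 0.29 and called lower (edgeR, adjusted p = 0.0177). It was not called by library size only (-0.28), by upper-quartile scaling (-0.62) or without the second wild-type library (-0.80), and it was called higher under Sertoli scaling (2.78). Hormad1, its relative, was at -0.29 ± 0.44 and not called. Iho1, which binds REC114 and was singled out after its value was seen, was listed as Ccdc36 and was higher at 48.2 ± 4.64 CPM in Stra8-deficient and 29.4 ± 1.55 CPM in wild-type testes (0.72 ± 0.18; edgeR, adjusted p = 0.00518; n = 3 each, SD).

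Of 13 genes of end processing and damage signalling 10 were higher and 3 lower. Chek2, a checkpoint kinase, rose by 4.13 ± 0.34, Exo1, a nuclease that trims break ends, by 3.02 ± 0.26, and Atm, the kinase that senses breaks, by 2.73 ± 0.31. The lower ones were Mdc1 (-2.70 ± 0.24), which carries the damage mark along chromatin, the kinase gene Atr (-2.18 ± 0.20), and H2afx (-1.85 ± 0.51), the histone variant that is phosphorylated at breaks. All 3 act in silencing the sex chromosomes in pachytene cells as well, and all 3 turned positive without a call under Sertoli scaling (1.03, 1.44 and 1.42). H2afx was also not called with library size alone (-1.22). Leaving out the first Stra8-deficient library moved H2afx to -2.84.

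Of 23 strand exchange partners 12 were higher, 6 lower and 5 not called. Rpa3 (3.67 ± 0.43) and Rpa2 (3.60 ± 0.20), subunits of the protein that coats single-stranded DNA in all dividing cells, rose most. Rpa1, for another subunit of that protein, was singled out after its value was seen and was called lower (-0.84 ± 0.19; edgeR, adjusted p = 0.00328). It stood at 189 ± 40.7 CPM in Stra8-deficient and 338 ± 17.7 CPM in wild-type testes (n = 3 each, SD), so the subunits did not move together. The lowest were Mcmdc2 (-3.94 ± 0.35), a gene of meiotic recombination related to the MCM helicases, Meiob (-3.0 ± 0.35) and Brme1 (-2.03 ± 0.27), which brings BRCA2 to meiotic breaks. Meiob stood at 2.61 ± 1.03 CPM in Stra8-deficient and 21.1 ± 1.72 CPM in wild-type testes (n = 3 each, SD), close to the level of Spata22 in each genotype. Under Sertoli scaling Meiob was at 0.10, Brme1 at 1.39 and Mcmdc2 at -0.36, none of them called.

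**Figure D5:**
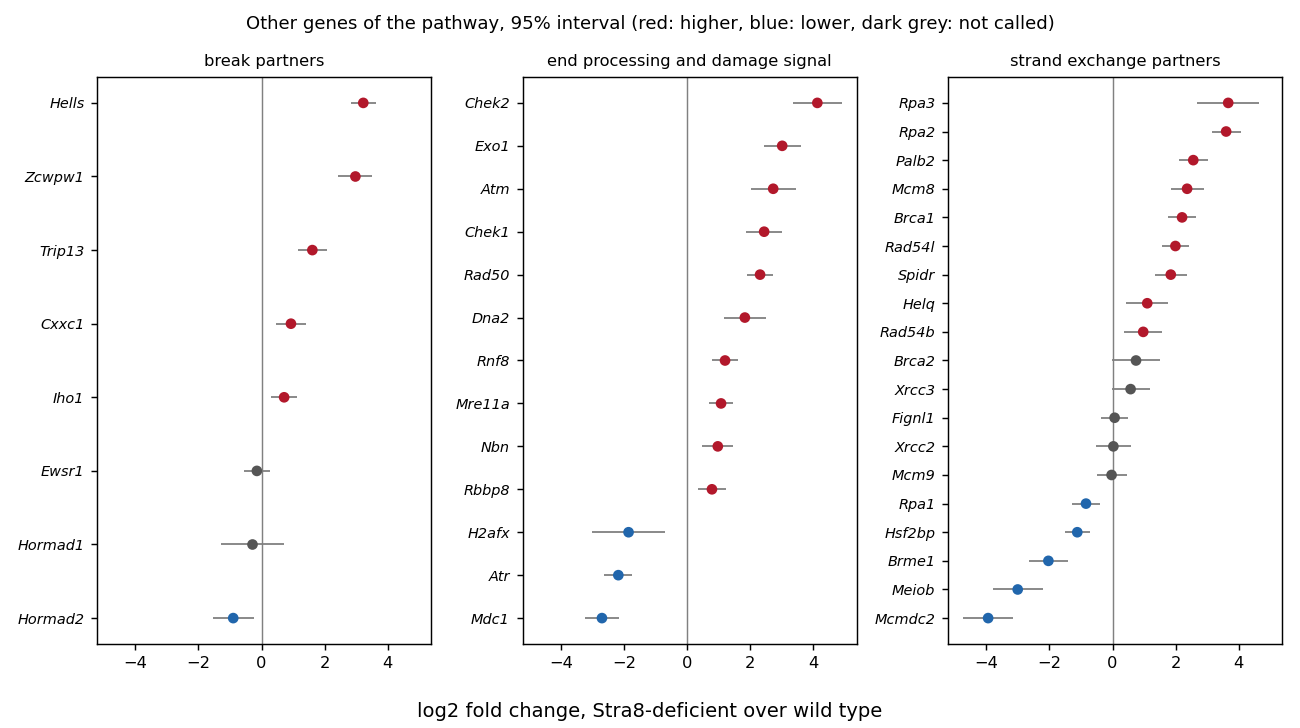
Log2 fold change (horizontal axis, Stra8-deficient over wild type) of 40 of the 44 other genes of the pathway with 95% intervals, in 3 lists; red points were called higher, blue lower, grey not called. Chek2, Rpa3 and Rpa2 stand highest and Mcmdc2 and Meiob lowest, and the genes called lower were no longer called lower under Sertoli scaling.

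Genes of the chromosome axis, on which breaks are made, and of the complex that joins paired axes (Sycp1, Syce1, Syce2 and Tex12) went both ways. Of 11 tested, 3 were higher, 5 lower and 3 not called, where 75.8% of all genes were called. Their fold changes ran from -2.86 ± 0.21 for Rec8 to 1.66 ± 0.23 for Smc3, cohesin subunits that were singled out after their values were seen. The median was -0.22, with a summed level of 1611 to 2169 CPM in Stra8-deficient and 2297 to 2465 CPM in wild-type libraries. Sycp3, of the axis core, was at 73.7, 83.3 and 74.3 CPM in Stra8-deficient and 92.7, 104 and 107 CPM in wild-type libraries. Its value of -0.39 ± 0.16 (edgeR, adjusted p = 0.0448) was not called without any 1 wild-type library or without the third Stra8-deficient library (-0.47 to -0.37), by upper-quartile scaling (-0.12) or without the low-count filter (-0.37), and turned to 0.22 with library size alone and 3.16 under Sertoli scaling. Dmc1 had 0.365, 0.227 and 0.314 reads for each Sycp3 read in Stra8-deficient and 0.241, 0.231 and 0.211 in wild-type libraries, overlapping ranges.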

How the data were processed

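Per the labels' protocols, RNA was taken with TRIzol, DNase-treated and made into Illumina mRNA libraries. Per the submitters' processing notes, TopHat, HTSeq and edgeR were used with the mm9 build; versions, settings and strand handling are not stated there. The deposited counts are raw reads per gene symbol and library. The authors' deposited table holds log2 ratios and p-values per gene. HTSeq's counters of reads outside genes (20.9% to 34.5% of reads) were left out, and the columns without a label numbered 0.

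Counts of the 21786 shared symbols were filtered with filterByExpr (15018 kept), scaled by TMM and tested across all genes with edgeR 4.0.16 (R 4.3.3; quasi-likelihood, genotype as the one term, Benjamini-Hochberg). P-values measure the spread between 3 and 3 males. SEs are the size of the log2 fold change over √F. Exact Poisson intervals (95%) cover counting error only; 3 reads, the limit that a count of 0 allows, are 0.201 to 0.550 CPM. Exon lengths came from GENCODE M21 (GRCm38), promoters from RefSeq. Alternatives were other scalings, no filter, DESeq2 1.42.0, limma-voom 3.58.1, a replicate block and leaving out each library. The test was also run on simulated counts in which few genes changed and both groups had the same spread. These data differ in both respects, so that run does not check scaling or error rates for them. In addition to the 10 genes, the 3 highest and 3 lowest called genes of each pathway list were named where the average log2 CPM reached 0, with Stra8, Sycp3, Sycp1 and Ddx4. Ratios were chosen after the values were seen, and genes and lists were chosen with earlier results of these data known. A gene that this rule names and a ratio to it are not reported here; counts and adjusted values include them.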

Additional observations from a re-analysis of the deposited data

Results flagged for a closer look

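Top6bl, listed as Gm960, encodes the partner of SPO11 in the mouse enzyme that cuts DNA. It is among the symbols of the third Stra8-deficient library alone and so entered no comparison. That library held 167 reads of it, 11.2 CPM, above the limit that a count of 0 allows. No level in wild-type testes can be set beside it.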

How the results depend on the processing

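Over the 10 genes and the alternatives in which each was tested, 112 values kept their direction and their side of the threshold, 14 lost a call, 2 gained one and 11 turned sign. Mnd1 entered with 4 values only, compared with its fit without the low-count filter, and lost that call without any 1 wild-type library. Sertoli scaling turned Prdm9 (1.26) and Psmc3ip (1.70). The other 9 were Dmc1, at 0.0033 with TMM and not called in any of these 9: -0.11 with RLE size factors, -0.20 after germ cell scaling, -0.010 with the replicate block, -0.015 with limma-voom, -0.12 with DESeq2, and below 0 in 4 of 6 fits without 1 library (all 6 from -0.15 to 0.087). Sertoli scaling left 0 of the 10 genes and 0 of the pathway genes called lower. It also turned Hormad2 (2.78), Atr (1.44), H2afx (1.42), Mdc1 (1.03), Meiob (0.10), Brme1 (1.39), Sycp1 (3.54), Sycp3 (3.16) and Ddx4 (2.05, against -1.55 with TMM). Library size alone turned Sycp1 (0.59, against -0.03 with TMM) and Sycp3 (0.22). Of genes not called, germ cell scaling turned Stra8 (-0.030) and upper-quartile factors Sycp1 (0.24), which lay between -0.17 and 0.12 with 1 library left out. The cause was not tested. Leaving out 1 library gave 10357 to 11726 changed genes, 3 to 5 of the 10 genes called higher and 4 lower. Of the pathway genes, 27 to 28 were higher and 9 to 10 lower. Deviations of same-numbered libraries correlated weakly, at 0.0582, 0.0797 and -0.0404. The first and second Stra8-deficient libraries correlated best with the same-numbered wild-type library, and the third with the first wild-type one. Pairing by replicate number was not tested. With a replicate block 11218 genes were changed, against 11379, and 4 of the 10 were higher and 4 lower as before; of the named genes only Sycp3 lost its call (edgeR, adjusted p = 0.104). Depth limits Mnd1, with 9 wild-type reads, and Mei4, with 13.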

Other observations

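Swi5 and Sfr1, which form a complex in strand exchange, are listed under older symbols in 5 files and under these names in that of the third Stra8-deficient library, and were therefore left out of the comparison. Sfr1 stood at 216, 246 and 241 CPM in Stra8-deficient libraries and 63.9, 65.1 and 66.4 CPM in wild-type libraries, without overlap. Swi5 stood at 105, 135 and 123 CPM in Stra8-deficient and 111, 114 and 120 CPM in wild-type libraries, with overlap. Neither was tested.

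For the 10 genes the authors' deposited table gives the same directions as the fit described here. Its log2 ratio was 3.28 for Rec114, listed there too as 2410076I21Rik, and 0.75 for Mei1 with a corrected p of 0.0416.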
